A study of Mus musculus with 4 samples.

Results

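Genes of lipid droplet proteins and of lipolysis were followed across 4 liver RNA-seq libraries of mice. They were chosen by symbol from a list of 10 genes (Plin2, Plin3, Plin4, Plin5, Cidec, Cideb, Hilpda, Pnpla2, G0s2 and Mgll), of which 9 were among the 15500 genes of the expression table. The expression of Mgll, which encodes monoacylglycerol lipase, was not analysed here, and only its promoter was searched. The mice were male Kunming animals, bought at 5 weeks of age and acclimated for 1 week. Vehicle stands for chow supplemented with linoleic acid at 1.5% by weight, and CLA for chow with 1.5% conjugated linoleic acid, a mixture of the c9t11 and t10c12 isomers, in its place. GW6471 stands for the linoleic acid diet with daily intraperitoneal injections of the PPARα antagonist GW6471 at 20 mg per kg of body weight. CLA+GW6471 combines the CLA diet with these injections. Feeding lasted 28 days, and livers were taken at zeitgeber time 8 according to the methods, which describe the Vehicle and CLA groups only. Each group held 6 mice according to the labels, but each condition has 1 library, and the sources used here do not say whether a library stems from 1 mouse or from several.

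Hepatocytes store triacylglycerol in lipid droplets, whose surface carries proteins of the perilipin (Plin) and Cide families. Perilipins coat the droplet and limit the access of lipases, Cide proteins promote droplet fusion and growth, and triacylglycerol is broken down stepwise by adipose triglyceride lipase (Pnpla2), hormone-sensitive lipase (Lipe) and monoacylglycerol lipase. G0s2 and Hilpda encode small inhibitors of adipose triglyceride lipase. Several of these genes are known targets of PPAR nuclear receptors, and Hilpda is also induced by hypoxia.

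Values are FPKM, a read density per length of transcript and per sequencing depth, so levels can be set side by side between genes. Each condition has a single library, so replicate error is unknown, no test was made, and every difference describes these libraries. Comparisons with a library in common are not independent of each other. Depth was estimated from the steps between low values at 18800000 to 19300000 reads per library. The marker genes did not match the labelled tissue throughout. Of 16 hepatocyte markers, 12 were listed and 9 of them had a mean under 1 FPKM, among them Ttr, Cps1 and Cyp2e1, whereas Alb stood between 620 and 1322 FPKM. The summed hepatocyte markers were at 949 FPKM in Vehicle against 1814 in CLA, with 1473 in GW6471 and 879 in CLA+GW6471. Nearly all of this sum was Alb, Trf and Fgb, and the markers under 1 FPKM did not all follow it. Of 10 adipocyte markers, 7 were listed with a sum of 20.2 to 27.2 FPKM, and Adipoq, their defining gene, was at 0.08 FPKM or less. Endothelial markers summed to 0.51 to 0.96 FPKM and erythrocyte markers to 2.08 to 2.47 FPKM. Macrophage markers lay between 44.5 and 64.6 FPKM, carried by Cd68 and Cd14. The stellate and fibroblast markers summed to 1149 to 1507 FPKM, nearly all of it Dcn, and the cholangiocyte markers to 386 to 641 FPKM, most of it Spp1. In whole tissue, fewer cells of a type and less RNA per cell cannot be told apart.

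Plin2 and Hilpda were the most abundant of the 9 genes in every library, and both were highest in the 2 libraries with GW6471. Plin2 encodes perilipin 2, the main droplet coat protein of hepatocytes, and lies at chr4:86294290-86315964 in mm9 on the minus strand. Plin2 had 211.71 FPKM in Vehicle and 181.74 in CLA, and 318.4 in GW6471 and 395.74 in CLA+GW6471. Both libraries with GW6471 were above both without it, and CLA+GW6471 was 2.18 times the lowest, CLA. Hilpda (chr6:29222488-29225446, plus strand) had 90.15 FPKM in Vehicle against 80.45 in CLA, with 187.82 in GW6471 and 227.47 in CLA+GW6471. The order of the libraries was the same as for Plin2, with a wider span of 2.83 times between CLA and CLA+GW6471. Together, Plin2 and Hilpda made up 73.9% of the summed FPKM of the 9 genes in Vehicle and 66.3% in CLA, and 81.4% in GW6471 and 85.5% in CLA+GW6471.

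**Figure D1:**
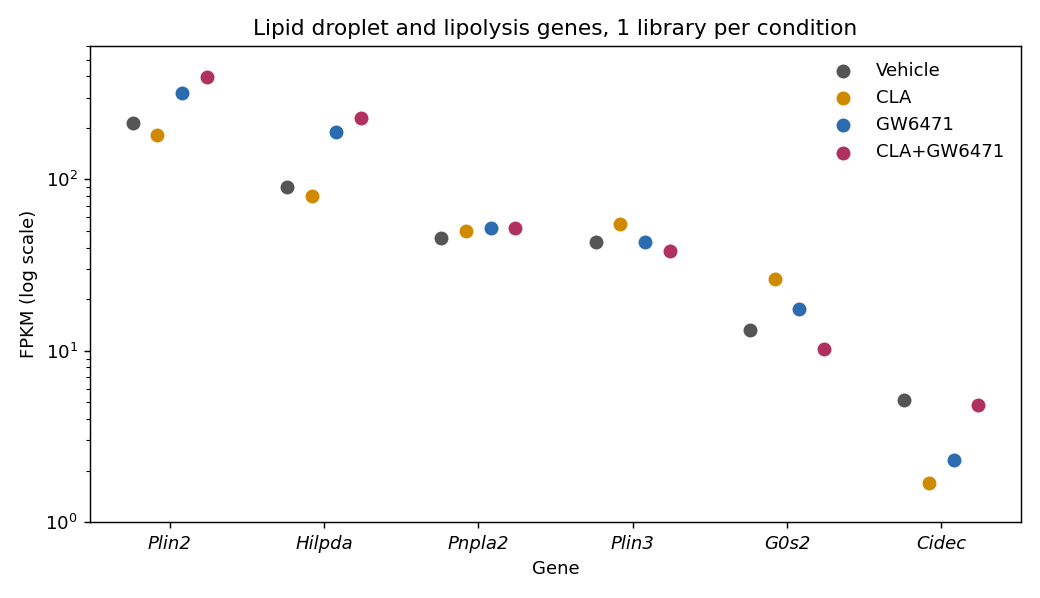
FPKM (log scale) of the 6 genes with a mean of at least 1 FPKM, with 1 point per library and no error bars since each condition has 1 library. Plin2 and Hilpda are highest in GW6471 and CLA+GW6471, Pnpla2 lies between 45.32 and 52.36 FPKM throughout, and G0s2 is highest in CLA, where Cidec is lowest.

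The sequences upstream of Plin2 and Hilpda are shown because these genes moved together. They are the 250 bases before the start in the RefSeq promoter table of GRCm38.p6, at chr4:86670060-86670309 (minus strand) for Plin2 and chr6:29272376-29272625 (plus strand) for the downstream start of Hilpda. Capitals mark ACGTG, a form of the core that hypoxia-inducible factors bind. Its other form, GCGTG, was not searched. ACGTG begins 43 bases before this Hilpda start. The 250 bases before the Plin2 start and before the upstream Hilpda start hold no ACGTG.
Plin2: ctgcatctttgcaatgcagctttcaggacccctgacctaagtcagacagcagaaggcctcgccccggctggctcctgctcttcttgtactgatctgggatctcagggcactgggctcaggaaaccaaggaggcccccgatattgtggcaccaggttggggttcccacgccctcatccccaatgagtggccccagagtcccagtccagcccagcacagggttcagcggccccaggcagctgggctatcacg
Hilpda: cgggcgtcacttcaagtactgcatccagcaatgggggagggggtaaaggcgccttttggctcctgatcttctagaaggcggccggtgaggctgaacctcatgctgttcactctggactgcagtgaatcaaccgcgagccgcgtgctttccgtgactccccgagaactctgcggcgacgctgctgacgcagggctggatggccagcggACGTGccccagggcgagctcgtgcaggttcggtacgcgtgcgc
In Plin2 an E-box, CACGTG, spans the start, with 4 bases before it and 2 after. It is in capitals in the 30 bases at chr4:86670046-86670075 (minus strand).
Plin2 start: cagctgggctatCACGTGgctcggaggctt
Windows of 250 bases before to 50 bases after the start were in the table for all 10 genes, in 14 windows. On either strand, ACGTG was in 4 of the 14 windows and in 19.6% of all 32851 windows. The 4 were those of Plin2 and Mgll and that of the downstream Hilpda start. The E-box, which contains ACGTG, was in 2 of the 14 windows and in 7.15% of all. The element of PPAR receptors is a direct repeat of AGGTCA spaced by 1 base (DR1). AGGTCANAGGTCA, searched on both strands, was in none of the 14 windows and in 0.0396% of all. With the fourth base of each hexamer free, AGGNCANAGGNCA was in none of the 14 windows and in 0.381% of all. Both patterns are so rare that their lack in 14 windows says little about PPAR elements. These matches are letters in a window, and no binding was measured.

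Of the other perilipins, Plin3 was well above the limit of detection, and Plin4 and Plin5 were near it. Plin3, which encodes a perilipin that coats nascent droplets and is found in most tissues, is at chr17:56418385-56429934 (minus strand). Plin3 had 43.02 FPKM in Vehicle against 55.14 in CLA, with 43.15 in GW6471 and 38.41 in CLA+GW6471. Vehicle and GW6471 did not differ beyond their counting error, CLA was highest and CLA+GW6471 lowest. Plin2 thus exceeded Plin3 by 4.92 times in Vehicle and 3.30 times in CLA, and 7.38 times in GW6471 and 10.3 times in CLA+GW6471. Plin4, a perilipin known from adipocytes, was listed at 0 in Vehicle against 0.01 FPKM in CLA, with 0.01 in GW6471 and 0.02 in CLA+GW6471. Plin5, a perilipin of oxidative tissues that links droplets to mitochondria, was listed at 0 in Vehicle and 0.03 FPKM in CLA, and 0.03 in GW6471 and 0 in CLA+GW6471. These values correspond to at most 2 reads for Plin4 and 1 read for Plin5, and a count of 0 would allow up to 0.0277 and 0.0803 FPKM, respectively (3 reads, counting error only). No difference between libraries was detectable for Plin4 or Plin5 at this depth. Plin4 and Plin5 are neighbours on the minus strand, at chr17:56240014-56249225 and chr17:56251024-56257019. The 3′ end of Plin4 overlaps that of Hdgfrp2, and the 3′ end of Cideb overlaps that of 2610027L16Rik, so reads at these ends cannot be assigned with certainty.

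Of the Cide genes, Cidec was measured at a low level and Cideb was close to 0. Cidec encodes the protein that drives droplet fusion and growth and lies at chr6:113374628-113385754 (minus strand). Cidec had 5.19 FPKM in Vehicle against 1.69 in CLA, with 2.32 in GW6471 and 4.85 in CLA+GW6471. Vehicle and CLA+GW6471 were high and close to each other, and CLA and GW6471 were low. The estimated reads were 169, 55, 76 and 161, so Cidec had the lowest precision of the 6 genes above 1 FPKM. Cideb (chr14:56372882-56377295, minus strand), which is known for its part in lipoprotein assembly in hepatocytes, was listed at 0 in Vehicle, CLA and CLA+GW6471. In GW6471 it had 0.04 FPKM, about 1 read, and a count of 0 would allow up to 0.131 FPKM.

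Among the lipolysis genes, the lipase was nearly level and its inhibitor G0s2 was not. Pnpla2 (chr7:148641097-148646642, plus strand) had 45.32 FPKM in Vehicle and 49.87 in CLA, and 52.2 in GW6471 and 52.36 in CLA+GW6471. Its highest library was 1.16 times its lowest, the narrowest span of the 6 genes. G0s2 (chr1:195098355-195099382, minus strand) had 13.30 FPKM in Vehicle against 26.26 in CLA, with 17.61 in GW6471 and 10.27 in CLA+GW6471. CLA was the highest library and CLA+GW6471 the lowest, whereas Plin2 and Hilpda were lowest in CLA and highest in CLA+GW6471. The ratio of Pnpla2 to G0s2 was 3.41 in Vehicle and 1.90 in CLA, and 2.96 in GW6471 and 5.10 in CLA+GW6471. In every library the order of levels was Plin2, Hilpda, then Pnpla2 and Plin3, then G0s2 and Cidec. Plin3 exceeded Pnpla2 in CLA and was below it in the other libraries.

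In mm9, 5000 bases on either side of each gene's 5′ end were also searched for DR1, a window chosen after the promoter result was seen. AGGTCANAGGTCA on either strand was found near 1 of the 9 genes, G0s2, and near 2.12% of 22380 protein-coding genes. With a free base in each hexamer, AGGNCANAGGNCA was near 2 of the 9, G0s2 and Plin4, and near 16.4% of all. The G0s2 match, at chr1:195103005-195103017 on the plus strand, is intergenic and 3635 bases upstream of the 5′ end. The Plin4 match is intergenic, between Plin4 and Plin5, at chr17:56250724-56250736 on the minus strand and 1511 bases upstream of Plin4. Both are shown with 20 flanking bases and the match in capitals.
G0s2 site: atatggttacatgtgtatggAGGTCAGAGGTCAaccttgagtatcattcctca
Plin4 site: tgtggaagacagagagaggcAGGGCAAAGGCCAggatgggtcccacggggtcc
G0s2 thus matched both patterns and Plin4 the looser one only. No binding was measured, and a link of these matches to expression was not tested.

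In CLA against Vehicle, the comparison for the diet, G0s2 was higher and Cidec lower, and the remaining 4 genes lay under the limit of 1.5-fold. Ratios were taken of FPKM + 0.1, a scale that understates changes of low genes. A gene with a mean of at least 1 FPKM was called higher or lower from 1.5-fold, with a 95% counting interval of the FPKM ratio from the estimated reads (exact Clopper-Pearson, counting error only). Of the 6 genes that passed this filter, 2 were past the limit, against 12.3% of all genes. Of these, 1 was higher, against 7.33% of all 10355 genes that passed, and 1 was lower, against 4.95%. G0s2 was 1.97-fold higher in CLA, a log2 ratio of 0.98 (interval 0.74 to 1.23). Cidec was 2.96-fold lower, at -1.56 (-2.08 to -1.17). Plin3 had a log2 ratio of 0.36 (0.27 to 0.45) and Pnpla2 of 0.14 (0.05 to 0.22). Plin2 had a log2 ratio of -0.22 (-0.27 to -0.17) and Hilpda of -0.16 (-0.27 to -0.06). A ratio is called beyond the counting interval where this interval excludes 0. That held for all 6 genes, and for 65.3% of the genes with a known length. The median log2 ratio of the 6 genes was -0.01, and that of all genes was -0.01. With a mean of at least 5 FPKM, which leaves out Cidec, the median of the remaining 5 genes was 0.14. The hepatocyte markers above 1 FPKM, Alb, Trf and Fgb, were also higher in CLA, by 0.66 to 1.61 on the log2 scale, and their part in the difference of G0s2 was not tested. Cidec, Plin2 and Hilpda went in the opposite direction to these markers.

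Between GW6471 and Vehicle, which addresses the antagonist on the control diet, Hilpda and Plin2 were higher and Cidec lower. Of the 6 genes, 3 passed the limit, against 5.39% of all genes. Of these, 2 were higher, against 3.29%, and 1 was lower, against 2.10%. Hilpda was 2.08-fold higher in GW6471, a log2 ratio of 1.06 (0.97 to 1.14). Plin2 was 1.50-fold higher, a log2 ratio of 0.59 (0.55 to 0.63), just inside the limit. Cidec was 2.19-fold lower, with a log2 ratio of -1.13 (-1.58 to -0.77). G0s2, at 0.40 (0.15 to 0.67), was the nearest gene outside the limit, and Pnpla2 had a log2 ratio of 0.20 (0.12 to 0.29). For Plin3, at 0.004 (-0.09 to 0.10), no difference was detectable at this depth. The median log2 ratio of the 6 genes was 0.30, against -0.004 over all genes. Ratios beyond the counting interval numbered 5 of 6, against 54.5% of all genes. The hepatocyte markers Alb, Trf and Fgb were at 0.65, 0.51 and 0.93 on the log2 scale, the direction of Hilpda, Plin2 and G0s2, and their part in these differences was not tested. Among all genes past the limit, 61.1% were higher in GW6471, and 71.2% after scaling to an equal FPKM sum.

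On the CLA diet, the antagonist was compared as CLA+GW6471 against CLA, and 4 of the 6 genes passed the limit, against 16.0% of all genes. Hilpda, Cidec and Plin2 were higher, 3 genes against 6.84% of all, and G0s2 was lower, 1 gene against 9.16%. Hilpda was 2.83-fold higher in CLA+GW6471, a log2 ratio of 1.50 (1.41 to 1.59). Cidec was 2.77-fold higher, at 1.47 (1.06 to 1.98), and Plin2 2.18-fold higher, at 1.12 (1.08 to 1.17). G0s2 was 2.54-fold lower, with a log2 ratio of -1.35 (-1.62 to -1.09). Alb, Trf and Fgb were lower as well, by a median log2 ratio of -1.09, and their part in the difference of G0s2 was not tested. Hilpda, Cidec and Plin2 went in the opposite direction to them. Cidec thus passed the limit in opposite directions in the comparisons of GW6471 on the control and the CLA diet. Plin3, at -0.52 (-0.62 to -0.43), was the nearest gene outside the limit. For Pnpla2, at 0.07 (-0.01 to 0.15), no difference was detectable. The median log2 ratio was 0.60 for the 6 genes and 0.01 for all genes, but 0.070 for the 5 genes without Cidec. In this comparison 5 of 6 ratios lay beyond the counting interval, against 68.4% of all genes.

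The diet in the presence of the antagonist was compared as CLA+GW6471 against GW6471, where Cidec was higher and G0s2 lower. Of the 6 genes, 2 passed the limit, against 6.69% of all genes, with 1 higher, against 2.81%, and 1 lower, against 3.88%. Cidec was 2.05-fold higher in CLA+GW6471, a log2 ratio of 1.03 (0.66 to 1.48). G0s2 was 1.71-fold lower, with a log2 ratio of -0.77 (-1.06 to -0.50). Both directions were the opposite of those in CLA against Vehicle, a pair of comparisons that shares no library. Opposite directions beyond both counting intervals were found in 5 of the 6 genes, all but Pnpla2, and in 39.9% of all genes. Plin2 had a log2 ratio of 0.31 (0.28 to 0.35), Hilpda of 0.28 (0.21 to 0.34) and Plin3 of -0.17 (-0.27 to -0.07), all under the limit. Pnpla2, at 0.004 (-0.07 to 0.08), showed no detectable difference. The median log2 ratio was 0.14 for the 6 genes and 0.004 for all genes, and 0.0044 for the 5 genes without Cidec. Between these libraries 5 of 6 ratios lay beyond the counting interval, against 58.9% of all genes. Of all genes past the limit, 42.0% were higher in CLA+GW6471, and 26.6% after scaling to the same FPKM sum. The summed hepatocyte markers, at 879 FPKM in CLA+GW6471 and 1473 in GW6471, moved in the same direction as G0s2, and their part in its difference was not tested. Cidec, Plin2 and Hilpda moved in the opposite direction.

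**Figure D2:**
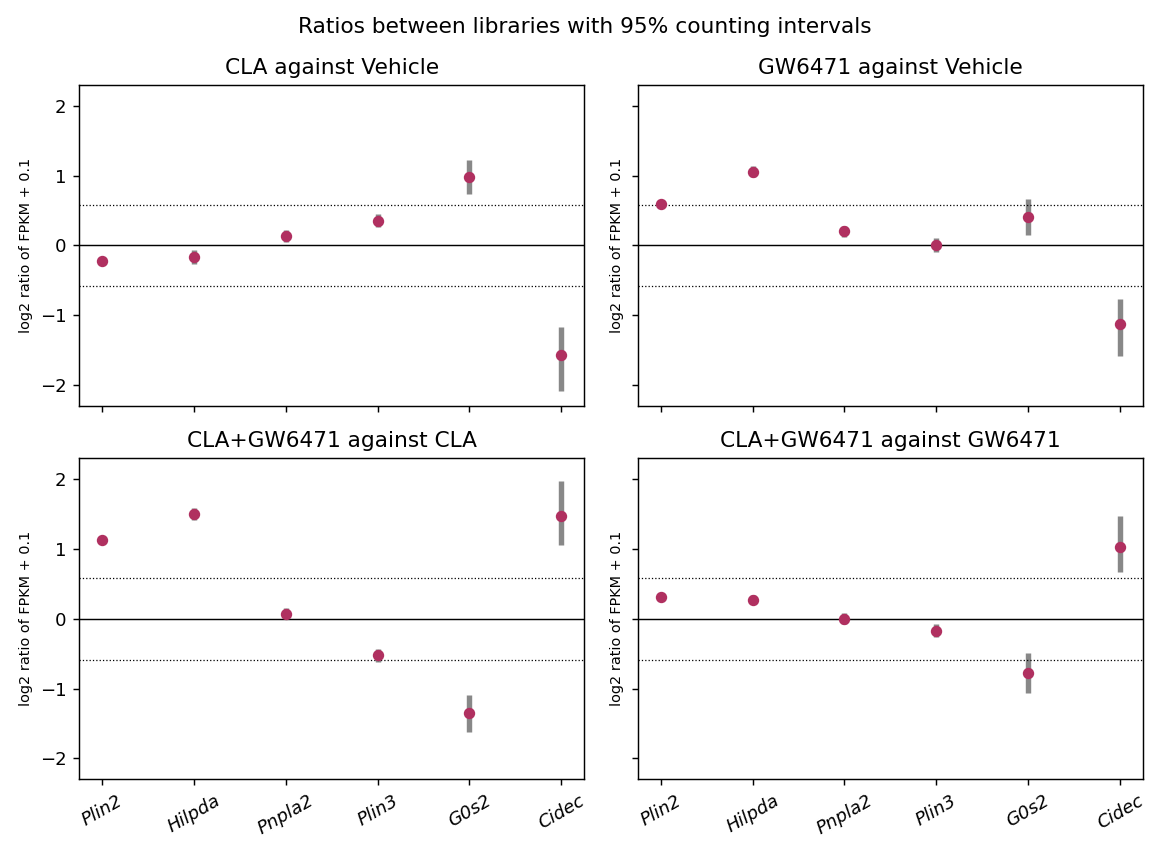
Log2 ratios of FPKM + 0.1 for the 6 genes in the 4 comparisons, with 1 panel per comparison. Points are ratios, bars 95% counting intervals of the FPKM ratio and dotted lines the limit of 1.5-fold. Hilpda and Plin2 pass it only in the panels that set GW6471 against no GW6471, and Cidec passes it in all 4, lower in the upper panels and higher in the lower ones.

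Plin2 and Hilpda differed mainly between libraries with and without GW6471, and each was the nearest of the 6 genes to the other. Likeness was measured over the 4 libraries as the Euclidean distance of log2(FPKM + 0.1) centred on each gene's mean, and with 4 points many genes lie close. Between Plin2 and Hilpda it was 0.43, and 17 of 10354 genes were nearer to Plin2 and 4 were nearer to Hilpda. Among 8181 genes with a mean of at least 5 FPKM, Angptl4, which encodes an inhibitor of lipoprotein lipase and is a known PPAR target, was nearest to Hilpda, at 0.16. It had 11.47 FPKM in Vehicle against 10.15 in CLA, with 26.76 in GW6471 and 32.39 in CLA+GW6471. The nearest gene to Plin2 was Smox, which encodes spermine oxidase, at 0.14, followed by Abca1, a cholesterol exporter, at 0.24. Smox had 57.41, 51.83, 96.49 and 105.58 FPKM in the same order. Smox and Prickle1 were among the 4 nearest of both genes, Tuba8 completed those of Plin2, and Fam71f2 those of Hilpda. Plin3 and Pnpla2 were also each other's nearest among the 6 genes, at 0.44, but 4936 genes were nearer to Plin3 and 7460 nearer to Pnpla2. The nearest to Cidec was Plin2, at 1.28, and the nearest to G0s2 was Plin3, at 0.65, with 4207 and 1200 genes nearer, respectively.

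**Figure D3:**
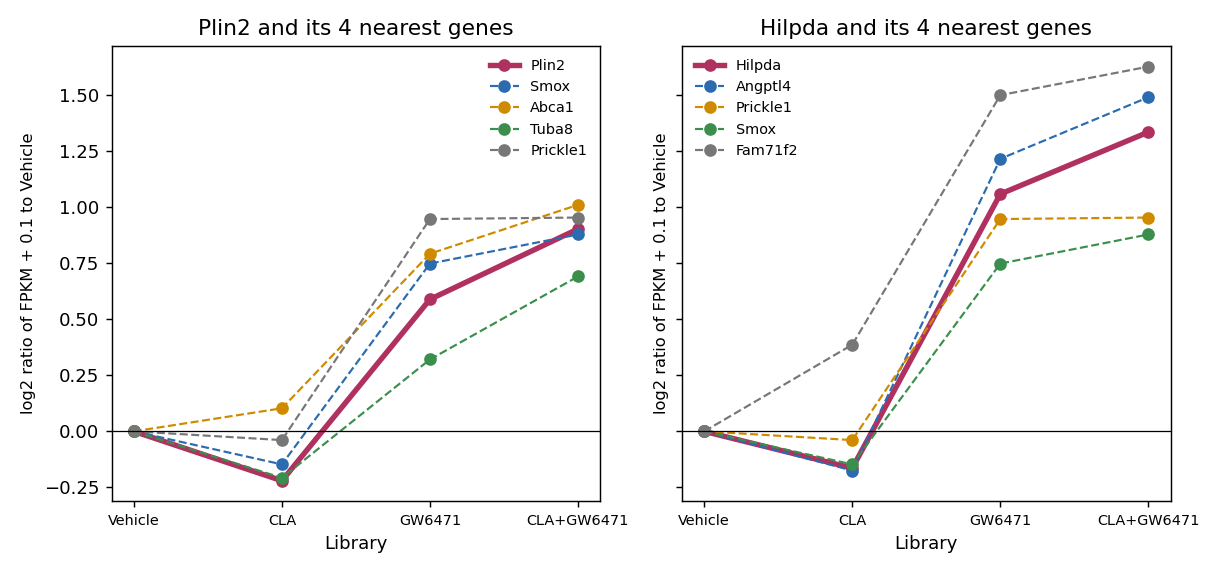
Log2 ratio of FPKM + 0.1 to Vehicle in each library for Plin2 (left) and Hilpda (right), each with its 4 nearest genes as dashed lines. Lines only join the points of a gene, and the conditions have no order. Angptl4 follows Hilpda at a distance of 0.16 and Smox follows Plin2 at 0.14.

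Other hydrolases past the limit were Lipa and Lipe. Of 13 further hydrolases, 9 were listed and 8 had a mean of at least 1 FPKM. In CLA against Vehicle, 2 of the 8 were higher and 0 lower, against 7.33% and 4.95% of all genes. They were Lipa, the lysosomal acid lipase, at a log2 ratio of 0.98, and Lipe, at 0.87. Lipe had 4.59 FPKM in Vehicle and 8.45 in CLA, and 8.95 in GW6471 and 5.76 in CLA+GW6471. Lipa and Lipe were also the 2 of 8 that were higher in GW6471 against Vehicle, at 0.65 and 0.95, against 3.29% of all genes. They were the 2 of 8 that were lower in CLA+GW6471 against GW6471, at -0.76 and -0.63, against 3.88% of all genes. Against CLA, 1 of 8 was lower in CLA+GW6471, Lipa at -1.09, against 9.16% of all genes. Relative to Vehicle, Alb had log2 ratios of 0.96 in CLA and 0.65 in GW6471, and CLA+GW6471 was at -1.09 relative to CLA and -0.78 relative to GW6471. Lipa and Lipe moved in the direction of this hepatocyte marker, whose part in their differences was not tested. Abhd5, the coactivator of Pnpla2, had 8.31, 7.14, 7.02 and 9.14 FPKM in Vehicle, CLA, GW6471 and CLA+GW6471 and passed the limit in none of the 4 comparisons.

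Of 15 further droplet surface and biogenesis genes, 13 were listed and 10 passed the filter. At most 2 of the 10 passed the limit in a comparison, where 12.3% of all genes did in CLA against Vehicle, 5.39% in GW6471 against Vehicle, 16.0% in CLA+GW6471 against CLA and 6.69% in CLA+GW6471 against GW6471. In CLA against Vehicle, Mettl7a1, a droplet-associated methyltransferase-like gene, was higher at a log2 ratio of 0.65, and Bscl2, the seipin gene of droplet formation, was lower at -0.59. Bscl2 was also the 1 gene lower in GW6471 against Vehicle, at -0.63, where 0 of 10 were higher, and the 1 gene higher in CLA+GW6471 against GW6471, at 0.60. In that comparison Vps13c was lower, at -0.66. Against CLA, 0 of 10 were higher in CLA+GW6471 and 2 were lower, Hsd17b11 at -0.78 and Mettl7a1 at -0.62. Both moved there in the direction of Alb, at -1.09, and Mettl7a1 did so in CLA against Vehicle, with Alb at 0.96, and the part of this marker was not tested. The most abundant gene of the list, Aup1, lay between 118 and 145 FPKM. Cidea, a Cide gene of brown fat, had 0.61 FPKM or less.

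Among 27 PPARα targets outside the 10 genes, 24 were listed and 17 passed the filter. In GW6471 against Vehicle, 8 of the 17 were higher and 0 lower, against 3.29% and 2.10% of all genes, with a median log2 ratio of 0.39. Pdk4, an inhibitor of pyruvate oxidation, had a log2 ratio of 3.83, the acyl-CoA thioesterase Acot1 of 2.63 and Cpt1a, which admits fatty acids to mitochondria, of 2.01. Plin2 and Hilpda went the same way as these targets in this comparison, although GW6471 is an antagonist of PPARα. In CLA against Vehicle, 5 were higher and 1 lower, against 7.33% and 4.95% of all genes, with a median of 0.41. Plin2 and Hilpda, at -0.22 and -0.16, went the other way there. With 5 higher and 2 lower, against 6.84% and 9.16% of all genes, the median in CLA+GW6471 against CLA was 0.22. Plin2 and Hilpda were also higher in it, at 1.12 and 1.50. Against GW6471, 0 were higher in CLA+GW6471 and 1 lower, against 2.81% and 3.88% of all genes, with a median of -0.21. Plin2 and Hilpda, at 0.31 and 0.28, again went the other way. The hepatocyte markers Alb, Trf and Fgb were also higher in GW6471 and in CLA, with median log2 ratios of 0.65 and 0.96 relative to Vehicle, and their part in these counts was not tested. All values are given as the libraries were labelled.

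**Figure D4:**
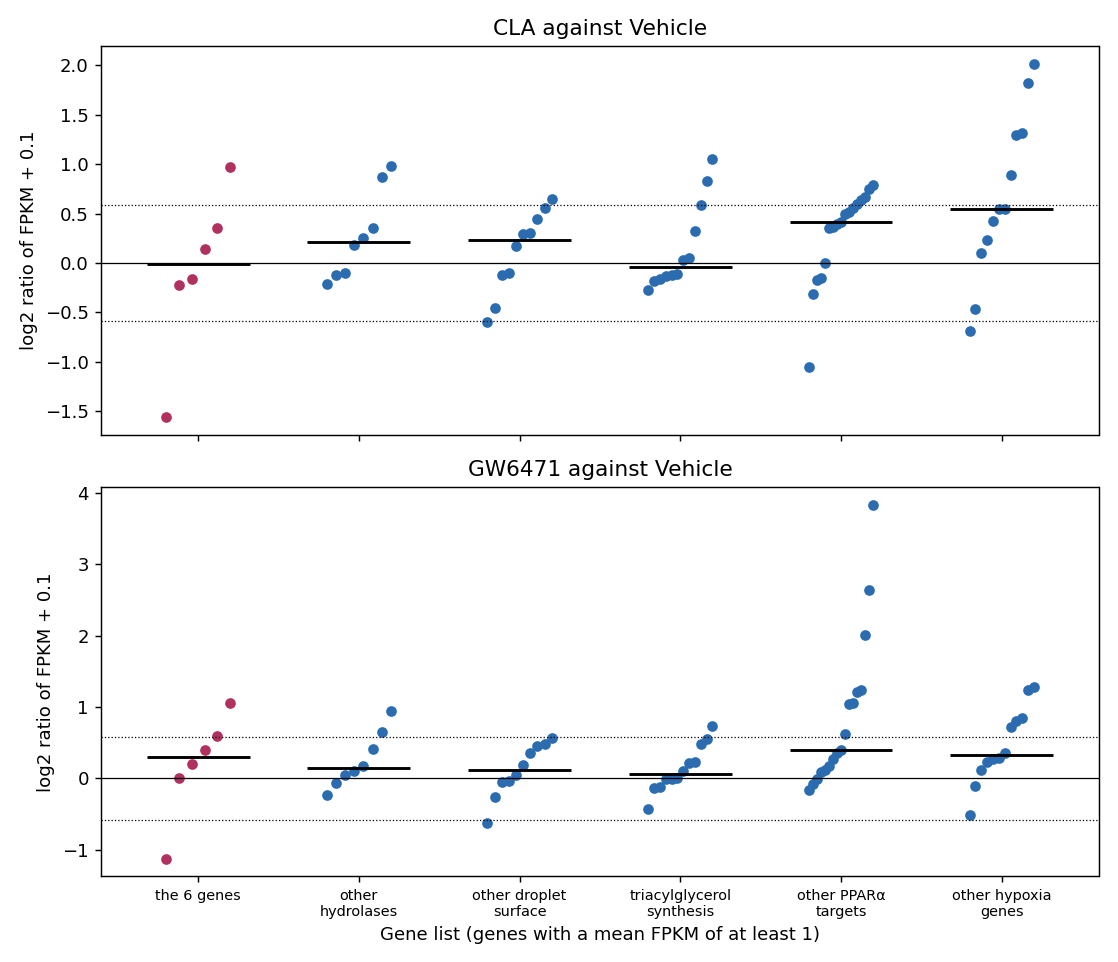
Log2 ratio of FPKM + 0.1 for the 6 genes and for 5 other gene lists in CLA against Vehicle (upper) and GW6471 against Vehicle (lower). Points are genes with a mean of at least 1 FPKM, black bars medians and dotted lines the limit of 1.5-fold. In the lower panel the median is 0.30 for the 6 genes and 0.39 for the other PPARα targets.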

How the data were processed

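Liver RNA was sequenced on an Illumina HiSeq 2000, with 1 library per condition. The submitters' notes name BWA, Bowtie and Cufflinks and the build mm9, and the authors deposited FPKM with 2 decimals and no counts. The unit was named in a supplementary sheet of the study. The sources used here do not give tool versions, the annotation or a filter on genes. All 4 value columns were used as deposited. Of the 15500 genes, 107 have no symbol, and 15007 obtained a transcript length from GENCODE vM1 (mm9).

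Reads were estimated from the steps of FPKM times length in 589 genes under 1000 nt with 1 coding transcript, of which 145 to 154 values per library were low enough to be used, and then from the longest coding transcript of each gene. PCR copies are not independent molecules, so intervals and floors of 3 reads cover counting error only. Ratios used FPKM + 0.1, a mean of at least 1 FPKM and a limit of 1.5-fold. No test was made. A fit of diet and GW6471 without their interaction would leave 1 residual degree of freedom, and it was not run. The steps were tested on simulated data. Alternatives were the pseudocount, the filter, the limit, library scaling and the transcript length.

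The genes and lists were chosen with earlier results of these data known. All 10 genes were named. From other lists, names were taken from the genes past the limit, at most the 4 of largest ratio in a comparison, and from the 3 most abundant, and not all of these were named. Cell type markers, Cidea among them, could be named at any level. For Plin2 and Hilpda the 4 nearest genes were named, and for Plin4 none, since it was near 0. The software was scipy 1.17.1, pandas 2.3.3, numpy 2.4.6 and matplotlib 3.10.9 under Python 3.11.15.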

Additional observations from a re-analysis of the deposited data

Results flagged for a closer look

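The log2 ratio of CLA to its control went in opposite directions without GW6471 (CLA against Vehicle) and with it (CLA+GW6471 against GW6471) in 5 of the 6 genes above 1 FPKM, beyond the counting interval on both sides, and in 39.9% of all genes. The difference between the ratios was not tested, since each condition has 1 library. It was largest for Cidec, at 2.60 (ratio with GW6471 minus ratio without, log2), and G0s2 followed at -1.75. Plin2 had a difference of 0.53, Plin3 of -0.52 and Hilpda of 0.44, and of these 3 genes none passed the limit of 1.5-fold in either comparison. Pnpla2 had a difference of -0.13 and a counting interval that held 0 with GW6471.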

How the results depend on the processing

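No paired analysis was possible because each condition has 1 library and all libraries carry the same replicate number. The tolerance was the counting interval for single genes, 1.5 times the count for counts, and the mean interval of the middle genes for medians. Of 180 values under an alternative, 165 stayed within it and 15 moved. At an equal FPKM sum, the median in CLA+GW6471 against GW6471 was 0.075 in place of 0.14. That in CLA against Vehicle was -0.043 in place of -0.013, and both stayed within the tolerance. No ratio past the limit changed sign, but the median over the genes in CLA against Vehicle did, from -0.01 to 0.14 with either other filter. For single genes, 3 of 96 moved, all with libraries scaled to the same FPKM sum, where Plin2 in GW6471 against Vehicle was 0.63, and Plin2 and Hilpda in CLA+GW6471 against GW6471 were 0.25 and 0.21. With the shortest transcript as length, 5 of 6 ratios in CLA against Vehicle lay beyond the counting interval, in place of 6.

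With a limit of 2-fold, 0 genes were higher in CLA against Vehicle and 1 in GW6471 against Vehicle, and 0 were lower in CLA+GW6471 against GW6471. With a mean of at least 5 FPKM, which leaves out Cidec, 0 genes were lower in CLA against Vehicle and in GW6471 against Vehicle, and 0 were higher in CLA+GW6471 against GW6471. The median over the genes was then 0.14 in CLA against Vehicle, 0.070 in CLA+GW6471 against CLA and 0.0044 in CLA+GW6471 against GW6471. With no filter, which adds Plin4, Plin5 and Cideb, these medians were 0.14, 0.070 and 0.0044. Estimated depth limits Cidec and G0s2 most, and for Plin4, Plin5 and Cideb it allows no comparison.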

Other observations

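Genes of triacylglycerol synthesis, the pathway that fills lipid droplets, had 14 of 14 members listed and 12 above 1 FPKM. In CLA against Vehicle, 3 were higher and 0 lower, against 7.33% and 4.95% of all genes. Gpam, the mitochondrial glycerol-phosphate acyltransferase, had a log2 ratio of 1.05, Lpin1, a phosphatidate phosphatase, of 0.83 and Mogat2 of 0.59. Gpam was the 1 gene of the list higher in GW6471 against Vehicle, at 0.73, against 3.29% of all genes. Against CLA, 1 gene was higher in CLA+GW6471, Dgat2 at 1.22, and 3 were lower, Gpam at -1.13, Lpin1 at -0.93 and Mogat2 at -0.80, against 6.84% and 9.16% of all genes. Against GW6471, Gpam and Lpin1 were lower in CLA+GW6471, at -0.81 and -0.65, and Dgat2, the enzyme of the final acylation step, was higher, at 0.74, against 3.88% lower and 2.81% higher of all genes. Gpam, Lpin1 and Mogat2 moved in the direction of the hepatocyte marker Alb, at 0.96 in CLA relative to Vehicle and at -1.09 in CLA+GW6471 relative to CLA, and its part in their differences was not tested. Agpat1, the most abundant gene of the list, lay between 87.1 and 116 FPKM and passed the limit in none of the 4 comparisons. Dgat2 had 1.65 FPKM in Vehicle against 1.35 in CLA, with 1.93 in GW6471 and 3.28 in CLA+GW6471, so CLA+GW6471 was its highest library, as for Plin2 and Hilpda.

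Hilpda went with other hypoxia-inducible genes in GW6471 against Vehicle and not in the other comparisons. Of 12 such genes above 1 FPKM, 5 were higher and 1 lower in CLA against Vehicle, against 7.33% and 4.95% of all genes, with a median log2 ratio of 0.55, and Hilpda was at -0.16. In GW6471 against Vehicle, 5 were higher and 0 lower, against 3.29% and 2.10% of all genes, with a median of 0.32, and Hilpda was higher at 1.06. Where Hilpda was higher at 1.50, in CLA+GW6471 against CLA, 5 of the 12 were lower and 1 was higher, against 9.16% and 6.84% of all genes, with a median of -0.56. Against GW6471 the counts were again 5 lower and 1 higher, against 3.88% and 2.81% of all genes, with a median of -0.39, and Hilpda was at 0.28, under the limit. Bnip3, a mitophagy receptor gene, had 19.65 FPKM in Vehicle and 79.94 in CLA, and 46.56 in GW6471 and 18.42 in CLA+GW6471, an order that G0s2 and the hepatocyte markers Alb, Trf and Fgb shared. The median log2 ratio of these 3 markers was 0.96 and 0.65 where 5 hypoxia genes were higher, and -1.09 and -0.78 where 5 were lower, and their part in the differences was not tested.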
